A study of Arabidopsis thaliana with 48 samples.

Results

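The harvest at 4 d compared the aerial parts of Arabidopsis thaliana plants that carried spider mites with those of plants kept without them. It took 8 of the 48 libraries of the series, 4 infested and 4 control, and these are described here across all genes. Infested Col-0 plants each received 20 adult females of Tetranychus urticae, an arthropod that pierces leaf cells and sucks out their content, when they were 3 weeks old. Control Col-0 plants were of the same age and received 0 mites. Every plant of both groups stood inside a cylinder, and the RNA of 4 plants was pooled for a library, which the labels call a biological replicate. How many mites and eggs the plants carried at the harvest is not stated in the labels or the files. The harvests at 24 h and 7 d, with 4 infested and 4 control libraries each, are used below to show where 4 d differed from its neighbours in time.

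Jasmonic acid (JA) is the main hormone of the plant's response to chewing and piercing animals. It is made from membrane lipids in the plastid and peroxisome and joined to isoleucine. The conjugate makes the receptor COI1 bind the JAZ repressors, which are then broken down, and this frees MYC factors that switch on defence genes and the JAZ genes themselves. Genes for many ERF, zinc finger and WRKY factors form another class, whose RNA appears within minutes of touch, wounding or contact with a microbe and decays soon after.

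Library totals were 20.3 ± 0.832 M counts (SD, n = 4) in infested plants and 19 ± 1.29 M in control plants. Levels are given as counts per M (CPM), scaled between libraries but not by gene length, so that they compare samples and not genes. The first principal component of the 8 libraries took 57.7% of the variance and placed the infested libraries between 38.1 and 46 and the control libraries between -53.9 and -25.5. The control libraries were less alike than the infested ones. Over genes, the chi-square of their counts ran from 2.77 (replicates 2 and 3) to 17.7 (replicates 3 and 4), against 4.52 to 6.82 among infested libraries, and no pair was identical. Many JA-responsive genes were higher in control replicates 1 and 4 than in replicates 2 and 3. VSP1 (AT5G24780), which encodes a vegetative storage protein with phosphatase activity, had 3115, 2789, 3459 and 3179 CPM in the infested libraries and 215, 39.5, 46.2 and 601 CPM in the control libraries. All values below are listed in the order of replicates 1 to 4, and values without a single library are given where a named gene lost its call or where a count of called genes moved by over 1.5 times. The markers of the labelled tissue were present, with 54650.4 to 58479.9 CPM in infested and 65987 to 73816 CPM in control libraries for the 16 Rubisco small subunit and Calvin cycle genes together.

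Of 22252 genes tested with edgeR's quasi-likelihood test at an adjusted p of 0.05, 16.4% differed between infested and control plants at 4 d. Higher in infested plants were 1932 genes (8.68%), and lower were 1710 (7.68%). Changes of at least 2-fold were more often rises, with 750 genes (3.37%) higher and 384 (1.73%) lower. In 5709 genes (25.7%) the 4 infested libraries all lay on the same side of the 4 control libraries, 2782 (12.5%) above and 2927 (13.2%) below. In whole aerial parts a lower value can mean fewer cells of a type or less RNA per cell, and these cannot be told apart.

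**Figure D1:**
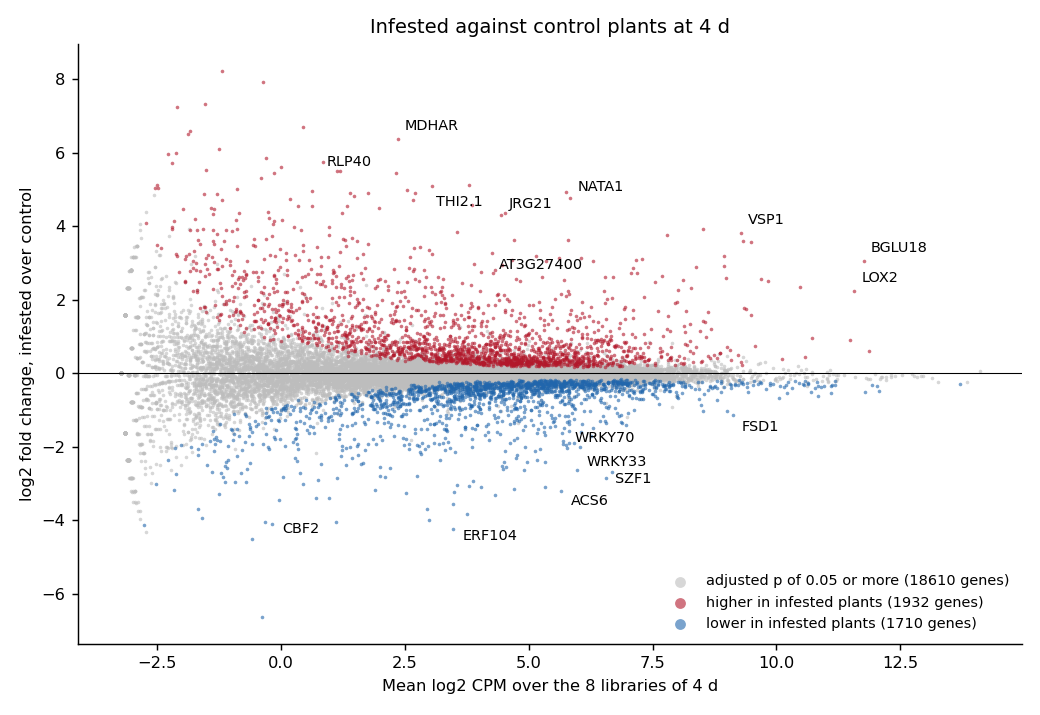
Log2 fold change of infested over control plants at 4 d (vertical axis) against the mean log2 CPM over the 8 libraries (horizontal axis), 1 point per gene and 22252 in all. The 1932 genes higher in infested plants (red) reach larger changes than the 1710 lower ones (blue), and a few of the most read genes, BGLU18, LOX2 and VSP1 among them, lie on the upper side.

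Of 44 gene lists that cover the pathways of a leaf, seed and root markers had 1 tested member each and are given below. Among the other lists, those of JA-responsive defence proteins, JAZ repressors and JA turnover, indole glucosinolates, volatiles and redox enzymes held the highest shares of genes called higher. The lists with the highest shares called lower were rapid zinc finger factors, Rubisco and the Calvin cycle, cytokinin response regulators, nitrogen assimilation and pattern-response WRKY factors. Their counts are read against 8.68% higher and 7.68% lower over all genes and a median log2 change of 0.

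**Figure D2:**
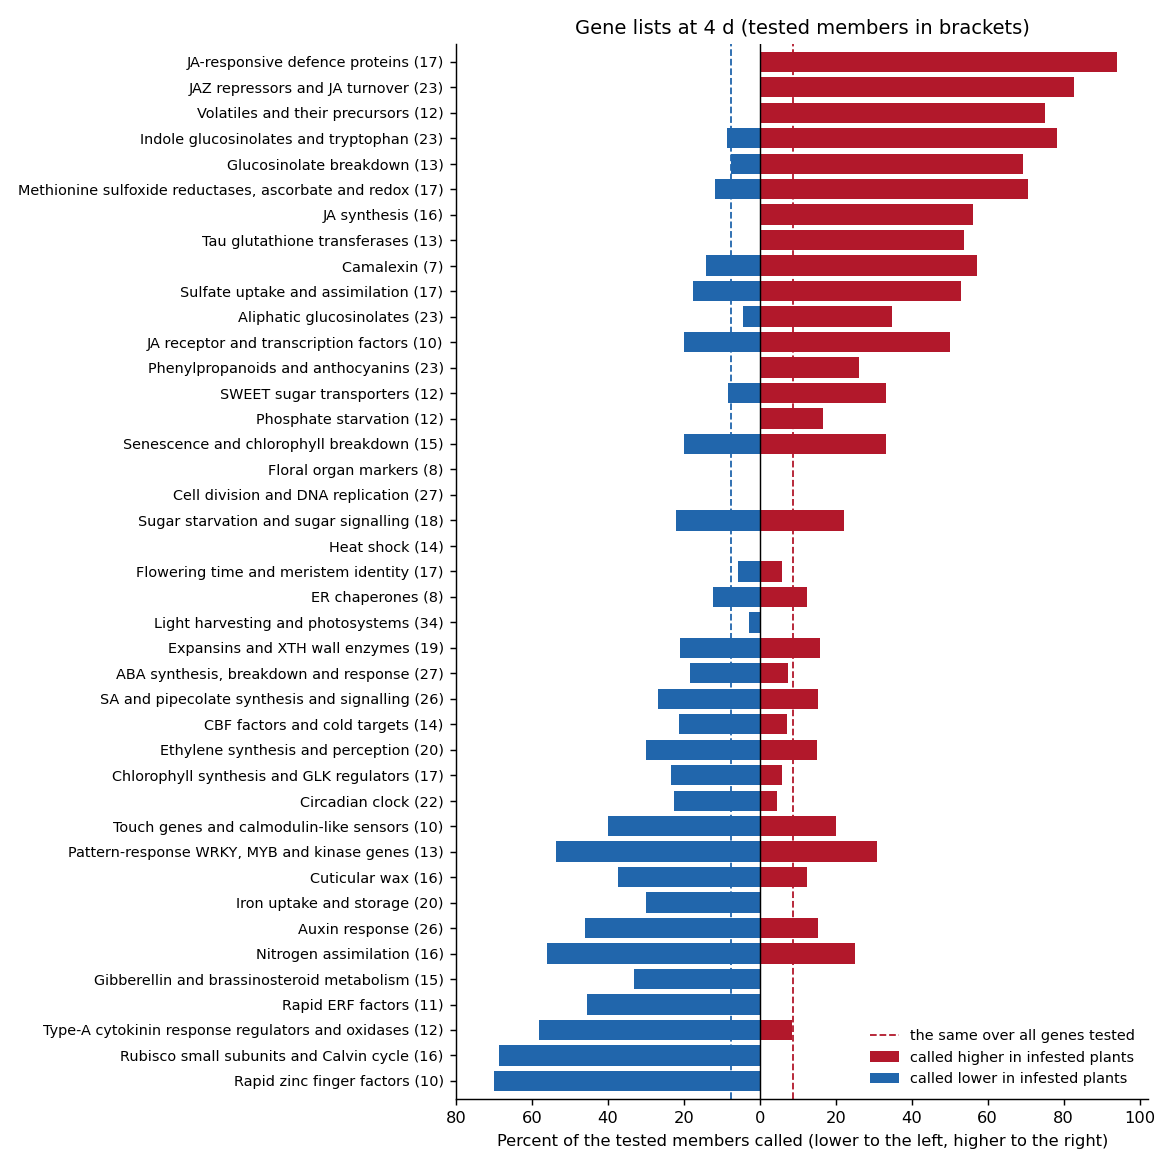
Percent of the tested members of each gene list called higher (red, right) or lower (blue, left) in infested plants at 4 d, with the same percentages over all 22252 genes as dashed lines at 8.68% and 7.68%. JA-responsive defence proteins stand at 94.1% higher, rapid zinc finger factors at 70% lower, and cell division genes at 0% on both sides.

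The largest rises were taken from genes past the threshold with a mean log2 CPM of 1 or more and no overlap between the groups. They were those of an enzyme of ascorbate recycling, defence proteins, receptor-like proteins and enzymes of lipid and terpene metabolism. MDHAR (AT3G09940), annotated as a monodehydroascorbate reductase, had 47.7, 62.8, 25.3 and 49.7 CPM in infested and 1.15, 0.293, 0.27 and 0.524 CPM in control libraries, a log2 change of 6.37 ± 0.69 (SE) with an adjusted p of 1e-08. The receptor-like protein gene RLP40 (AT3G24982) had 32, 38.9, 23.5 and 36.5 CPM in infested and 0.689, 0.411, 0.432 and 1.42 CPM in control libraries. EARLI1 (AT4G12480), for a small lipid transfer protein-like wall protein, had 40.3, 58.9, 33.5 and 56 CPM in infested and 1.67, 1.29, 1.51 and 1.05 CPM in control libraries. In each of these 3 genes the lowest infested library was many times above the highest control library. The rises of RLP40 and EARLI1 were 5.44 ± 0.46 (adjusted p = 3.5e-11) and 5.09 ± 0.42 (adjusted p = 3.5e-11) on the log2 scale. LAS1, a lanosterol synthase, was higher by 4.89 ± 0.59 and FAR5, a fatty acyl reductase, by 4.89 ± 0.49. The gene with the smallest p of all was AT3G27400, to which the annotation used gives no symbol. It had 59.8, 55.3, 53.6 and 68.2 CPM in infested and 5.17, 5.87, 5.88 and 7.44 CPM in control libraries, a log2 change of 3.28 ± 0.18 (adjusted p = 1e-17).

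The 15 largest falls were led by transcription factor genes of the rapid class, which are described below with the other members of their families. Beside these, BT2, whose product carries BTB and TAZ domains and acts in sugar and nitrogen responses, had 4.19, 2.65, 3.96 and 2.82 CPM in infested and 66.4, 44.9, 32 and 16.6 CPM in control libraries. PUB19, a ubiquitin ligase gene of drought signalling, had 6.28, 5.92, 7.12 and 5.85 CPM in infested and 81.6, 58.1, 44.8 and 67.3 CPM in control libraries. DIC2 (AT4G24570), for a dicarboxylate carrier of the mitochondrial membrane, had 15.8, 13.9, 13.4 and 12.09 CPM in infested and 137, 113, 95.1 and 131 CPM in control libraries. The 15 largest falls were taken only from genes without overlap between the groups, so its absence in these 3 genes follows from the choice. BT2 was the one whose control libraries differed most from each other. The log2 changes were -3.55 ± 0.42, -3.32 ± 0.59 and -3.11 ± 0.35, with adjusted p of 4.2e-08, 6.5e-05 and 2.2e-08.

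Among genes changed at least 2-fold, those that took the most reads were BGLU18, LOX2, VSP2, VSP1 and AT3G28220 on the higher side. BGLU18 (AT1G52400), a beta-glucosidase of the endoplasmic reticulum bodies that form in leaves treated with JA, had 10966, 10219.7, 12173 and 11458 CPM in infested and 1427, 535, 615 and 2806 CPM in control libraries. It rose by 3.06 ± 0.43 on the log2 scale (adjusted p = 1.5e-06). Control replicate 4 was the highest control library and still lay far below every infested one. AT3G28220 rose by 3.58 ± 0.54 (adjusted p = 4e-06). On the lower side were FSD1 (AT4G25100), the chloroplast iron superoxide dismutase, AT1G73600, AT4G32020, HSPRO2 and AT1G78830. HSPRO2, named for its likeness to a nematode resistance gene of sugar beet, had 44.7, 41.7, 37.1 and 39 CPM in infested and 309, 225, 190.2 and 320.2 CPM in control libraries, a log2 change of -2.68 ± 0.29 (adjusted p = 1e-08).

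Genes of JA synthesis were higher in infested plants. Of 16 tested members, 9 rose and none fell, 6 of them at least 2-fold, and the median log2 change was 0.9. Their summed level was 9631 to 11428 CPM in infested libraries and 1434 to 4779.9 CPM in control libraries. LOX2 (AT3G45140), the plastid lipoxygenase that starts the path, had 7119, 6563, 7787 and 7543 CPM in infested and 1885, 696, 692 and 2883 CPM in control libraries, a log2 change of 2.24 ± 0.41 (adjusted p = 0.00011). AOS (AT5G42650), the allene oxide synthase of the next step, had 1362, 1118, 1301 and 1342 CPM in infested and 475, 237, 223 and 606 CPM in control libraries, a log2 change of 1.73 ± 0.28 (adjusted p = 1.3e-05). OPR3 (AT2G06050), the reductase of the peroxisomal part, had 309.6, 227, 273 and 266 CPM in infested and 102, 44.3, 37.7 and 142 CPM in control libraries, a log2 change of 1.72 ± 0.40 (adjusted p = 0.0019). All 3 genes had no overlap between the groups, and within the control group replicates 1 and 4 held the higher values. The allene oxide cyclases AOC1 and AOC2, whose sequences are so alike that reads may be shared, rose by 3.09 ± 0.57 and 2.27 ± 0.43. LOX2, OPR3, AOC1 and AOC2 were not past the threshold in a fit of the 8 libraries with a term for the replicate number. AOC4 and the acyl-CoA oxidase ACX1 rose by 0.73 ± 0.12 and 0.63 ± 0.13. Also past the threshold were LOX3 (adjusted p = 0.025) and LOX6 (adjusted p = 0.012). LOX3 missed it without infested replicate 1 or control replicate 2 or 3, and LOX6 without control replicate 2, the adjusted p then reaching 0.1 and 0.054.

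The bases before the start of AOS are shown because they end in a G-box (CACGTG), the element that MYC factors are known to bind. The stretch of TAIR10.1 below is chr5:17099596-17099845 on the minus strand, written 5′ to 3′ towards the transcription start, with the motif in capitals.
AOS: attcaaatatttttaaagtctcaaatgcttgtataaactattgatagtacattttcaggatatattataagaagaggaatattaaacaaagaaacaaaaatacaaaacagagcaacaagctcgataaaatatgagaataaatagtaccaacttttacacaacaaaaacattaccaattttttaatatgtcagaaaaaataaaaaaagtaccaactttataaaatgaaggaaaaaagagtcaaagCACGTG

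The JAZ repressors and the enzymes that remove JA were higher in infested plants almost throughout. Of 23 tested members, 19 rose and none fell, 17 at least 2-fold, with a median of 1.92. Without control replicate 2 or control replicate 3 the count was 14. JAZ10 (AT5G13220), a repressor whose splice forms differ in stability, had 96.5, 79.2, 94 and 93.9 CPM in infested and 8.62, 3.4, 2.59 and 28.2 CPM in control libraries, a log2 change of 3.07 ± 0.58 (adjusted p = 0.00016). JAZ9 (AT1G70700) had 799.8, 696, 803 and 712 CPM in infested and 357, 134, 113 and 342 CPM in control libraries, a log2 change of 1.67 ± 0.35 (adjusted p = 0.00057). Both sets of libraries were apart in the 2 genes, and the infested libraries differed little among themselves. With the replicate term JAZ10 was not past the threshold. JAZ2, JAZ4 and JAZ6 rose by 1.41 ± 0.30, 1.43 ± 0.37 and 1.68 ± 0.30, and JAZ3 and JAZ12 by less than 1 on the log2 scale. JAZ5 (adjusted p = 0.021) was past it too, but not without control replicate 1, 2 or 3, when the adjusted p reached 0.089, nor in a fit of the 8 libraries alone.

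Enzymes that turn JA and its conjugate into other forms rose with the repressors. JRG21 (AT3G55970), one of 4 JA oxidases that hydroxylate free JA, had 187, 153, 169 and 181 CPM in infested and 6.89, 0.411, 0.486 and 27 CPM in control libraries, a log2 change of 4.29 ± 0.72 (adjusted p = 2.5e-05). The infested libraries were close to each other, while the control libraries ran over a wide range with replicate 4 highest. AT3G11180, another of these oxidases, rose by 5.60 ± 0.60 (adjusted p = 3.5e-09) and AT5G05600, a further one, by 3.13 ± 0.63 (adjusted p = 0.00033), the last not in a fit of the 8 libraries alone. ILL6 (AT1G44350), an amidohydrolase that splits the conjugate, had 150.3, 122, 148 and 136 CPM in infested and 32.2, 10.6, 10.1 and 42 CPM in control libraries, a log2 change of 2.55 ± 0.35 (adjusted p = 7.3e-07). The cytochrome P450 CYP94C1, which oxidises the conjugate, rose by 2.34 ± 0.44, the amidohydrolase IAR3 by 1.80 ± 0.31 and the sulfotransferase ST2A by 2.57 ± 0.50.

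Of 10 genes for the receptor and the transcription factors of the pathway, 5 rose and 2 fell. MYC2 (AT1G32640), the factor at the head of the wound branch, had 352, 297, 351 and 362 CPM in infested and 210.4, 100.3, 92.6 and 372 CPM in control libraries and did not pass the test (log2 change 0.81 ± 0.33, adjusted p = 0.093). Control replicate 4 lay above every infested library. MYC3 was higher by 0.37 ± 0.09 (adjusted p = 0.002), MYC4 stood at -0.01 ± 0.13 (adjusted p = 1), and JAM2 and JAM3, relatives of MYC2 that act as repressors, rose by 0.62 ± 0.11 and 0.42 ± 0.07. ORA47 (AT1G74930), an ERF factor that switches on JA synthesis genes, went the other way. It had 7.33, 4.54, 6.17 and 3.75 CPM in infested and 43.9, 22, 15.38 and 103 CPM in control libraries, a log2 change of -3.08 ± 0.73 (adjusted p = 0.0024). It was among the 15 largest falls, so the lack of overlap between its groups follows from the choice. Control replicate 4 was the highest library. The fall of COI1 and the rise of JAM1 were near the threshold. COI1, at -0.22 ± 0.08 (adjusted p = 0.047), lost it in 7 of the 8 fits that left out 1 library, and JAM1 (adjusted p = 0.016) without infested replicate 1 or control replicate 2 or 3. Both JAM1 and ORA59 missed the threshold in a fit of the 8 libraries alone. ORA59, which joins the JA and ethylene branches, rose by 1.96 ± 0.49 (adjusted p = 0.003).

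Defence proteins under JA control were higher in infested plants. Of 17 tested members, 16 rose at least 2-fold and none fell, with a median of 2.89, and their summed level was 11413 to 13269 CPM in infested and 712 to 3563 CPM in control libraries. VSP1 (AT5G24780), given above, rose by 3.80 ± 0.69 (adjusted p = 8.1e-05), and VSP2 (AT5G24770) had 3784, 3069, 4093 and 3581 CPM in infested and 869.6, 289, 283 and 1436 CPM in control libraries, a log2 change of 2.34 ± 0.49 (adjusted p = 5e-04). THI2.1 (AT1G72260), a thionin that harms the membranes of microbes, had 100.2, 114, 126 and 99.4 CPM in infested and 7.01, 2.23, 3.18 and 9.07 CPM in control libraries, a log2 change of 4.34 ± 0.46 (adjusted p = 5.9e-09). TI1 (AT2G43510), a trypsin inhibitor, had 80.2, 105, 70.6 and 88.7 CPM in infested and 3.45, 0.939, 1.46 and 4.04 CPM in control libraries, a log2 change of 5.11 ± 0.44 (adjusted p = 1e-10). No control library reached an infested one in these genes, which for TI1 follows from its choice among the 15 largest rises. VSP1 and VSP2 were not past the threshold in a fit of the 8 libraries with the replicate term. NATA1 (AT2G39030), which acetylates ornithine, had 663, 542, 582 and 736 CPM in infested and 13.8, 0.528, 0.971 and 77 CPM in control libraries, a log2 change of 4.76 ± 1.03 (adjusted p = 0.00084). NATA1 was also among the 15 largest rises, so its lack of overlap follows from the choice. Its control libraries ran from below 1 CPM to the 77 CPM of replicate 4. With the replicate term NATA1 was not past the threshold either. JR1, a jacalin-related lectin, CLH1, a chlorophyllase, and CORI3, a lyase induced by coronatine, rose by 2.57 ± 0.33, 2.59 ± 0.43 and 2.89 ± 0.67. PDF1.2, the defensin of the JA and ethylene branch, had 40.8, 72.5, 24.6 and 66.1 CPM in infested and 1.55, 0, 0 and 27.9 CPM in control libraries (log2 change 2.77 ± 0.71, adjusted p = 0.0045). Control replicate 4 exceeded the lowest infested library there, and the call was lost by DESeq2 and by a fit of the 8 libraries alone. Reads of PDF1.2 and its copies PDF1.2b and PDF1.2c may be shared.

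**Figure D3:**
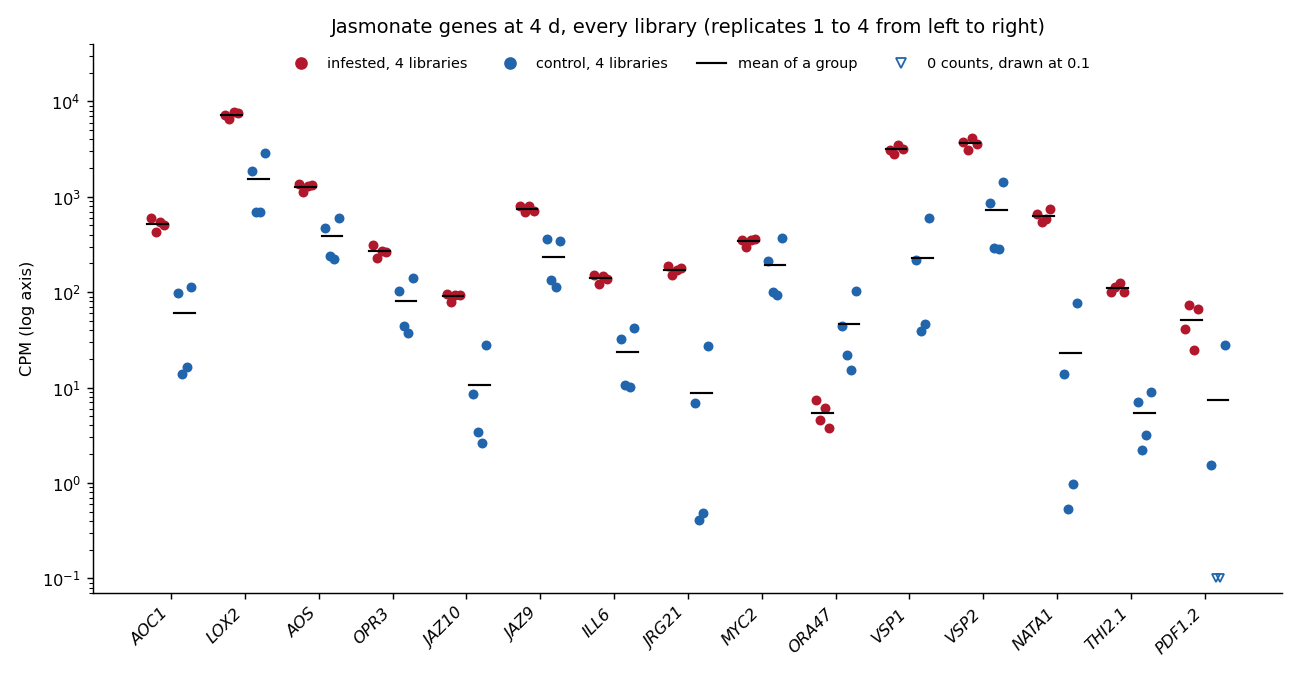
CPM on a log axis of 15 genes of JA synthesis, repression, turnover and output in each library of 4 d, infested (red, left) and control (blue, right) with group means as lines. Infested libraries lie close together while control replicates 1 and 4 lie above 2 and 3. ORA47 is the gene drawn whose infested libraries lie below the control libraries, and MYC2 one in which a control library lies among or above the infested ones.

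Genes of leaf volatiles rose as well, 9 of 12 tested members with a median of 2.75, each at least 2-fold, and none fell. CYP82G1 (AT3G25180), the P450 that makes the homoterpene TMTT, had 19.8, 18.1, 12.08 and 18.7 CPM in infested and 0.172, 0.0587, 0 and 1.21 CPM in control libraries, a log2 change of 5.50 ± 0.58 (adjusted p = 4.4e-09). GES (AT1G61120), which makes the precursor geranyllinalool, had 172, 113, 73.7 and 136 CPM in infested and 9.54, 0.352, 0.108 and 10.5 CPM in control libraries, a log2 change of 4.58 ± 0.94 (adjusted p = 0.00041). Control replicates 1 and 4 again held the higher control values. HPL1, the hydroperoxide lyase of green leaf volatiles, and CHAT, which acetylates the leaf alcohol, rose by 2.15 ± 0.37 and 2.63 ± 0.46 (adjusted p = 4.3e-05 and 5.2e-05). Their infested libraries were all above their control libraries. BSMT1, which methylates salicylic acid, rose by 2.80 ± 0.71, a call lost in a fit of the 8 libraries alone, and the terpene synthases TPS02 and TPS03 by 3.98 ± 0.72 and 3.37 ± 0.69.

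Salicylic acid (SA) and pipecolic acid genes moved both ways. Of 26 tested members, 4 rose and 7 fell, and the median was 0.09. PR2 (AT3G57260), a glucanase used as a marker of SA responses, had 93.5, 151, 51 and 110 CPM in infested and 8.16, 5.1, 3.78 and 15.9 CPM in control libraries, a log2 change of 3.61 ± 0.55 (adjusted p = 4.7e-06). EDS5 (AT4G39030), the transporter of the SA precursor, had 18.7, 23.2, 20.3 and 23.8 CPM in infested and 7.87, 7.33, 7.45 and 8.18 CPM in control libraries, a log2 change of 1.48 ± 0.27 (adjusted p = 6.5e-05). Both were higher in every infested library, as was EPS1, at 0.93 ± 0.14, which encodes the last enzyme of SA synthesis. CBP60G (AT5G26920), a factor that switches on SA synthesis genes, had 10.4, 12.7, 5.01 and 11.5 CPM in infested and 36.9, 32.8, 26 and 32.7 CPM in control libraries, a log2 change of -1.70 ± 0.26 (adjusted p = 4.3e-06). WRKY70 (AT3G56400), which acts downstream of SA, had 29.2, 36.9, 11.9 and 36.4 CPM in infested and 154, 96.6, 106 and 90.9 CPM in control libraries, a log2 change of -1.97 ± 0.28 (adjusted p = 1.3e-06). These were lower in every infested library, with replicate 3 the lowest in both. With the replicate term WRKY70 was not past the threshold. The SA receptors NPR3 and NPR4 fell by 0.96 ± 0.15 and 0.60 ± 0.10 on the log2 scale.

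Indole glucosinolate and tryptophan genes rose in 18 of 23 tested members and fell in 2, with a median of 1.01. Their summed level was 4962 to 5387 CPM in infested libraries and 1962 to 2968 CPM in control libraries. CYP79B2 (AT4G39950), which turns tryptophan into the oxime at the head of the path, had 297, 360.3, 358 and 336 CPM in infested and 88.8, 60.1, 50.1 and 123 CPM in control libraries, a log2 change of 2.07 ± 0.25 (adjusted p = 1e-07). Its neighbours CYP79B3, CYP83B1 and ASA1, the last an enzyme of tryptophan synthesis, rose by 1.92 ± 0.31, 1.19 ± 0.15 and 1.48 ± 0.20. IGMT5 (AT1G76790), a methyltransferase that modifies the indole ring, had 96.2, 113, 142 and 125 CPM in infested and 16.5, 9.85, 10.6 and 20.8 CPM in control libraries, a log2 change of 3.04 ± 0.47 (adjusted p = 6.3e-06). CYP81F4, which hydroxylates the same ring position, rose by 2.72 ± 0.38 (adjusted p = 1.4e-06). The 2 members that fell were MYB51 (AT1G18570), a MYB factor of the pathway, and CYP81F2, a P450 that hydroxylates another position. MYB51 had 6.39, 4.44, 5.51 and 5.08 CPM in infested and 21.7, 17.8, 16.6 and 17 CPM in control libraries, a log2 change of -1.77 ± 0.21 (adjusted p = 2.2e-08). CYP81F2 was at -1.93 ± 0.36 (adjusted p = 1e-04), while MYB34, another MYB factor of the pathway, rose by 1.44 ± 0.24 (adjusted p = 1.9e-05).

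Of 23 aliphatic glucosinolate genes 8 rose and 1 fell, none of them 2-fold, with a median of 0.36. The fall, of the MYB factor MYB28, was lost without infested replicate 2 or 4 or control replicate 3 (adjusted p up to 0.075), and a fit of the 8 libraries alone called 13 rises. BCAT4, which starts the chain elongation of methionine, and SOT17, which adds the sulfate, rose by 0.71 ± 0.18 and 0.73 ± 0.16. Among 13 genes of glucosinolate breakdown 9 rose and 1 fell. The fall was that of the myrosinase PEN2, lost without infested replicate 3 or control replicate 1 and in a fit of the 8 libraries alone. TGG2 (AT5G25980), one of both main leaf myrosinases, had 3943, 3375, 4349 and 4196 CPM in infested and 2196, 1741, 1883 and 2647 CPM in control libraries, a log2 change of 0.91 ± 0.13 (adjusted p = 4.9e-07). TGG1, the other, rose by 0.59 ± 0.12. NSP1, which steers breakdown towards nitriles, and the nitrilases NIT2 and NIT3 rose by 1.41 ± 0.22, 3.68 ± 0.65 and 1.69 ± 0.20. The summed level of this list, most of it BGLU18 and the myrosinases, was 21067 to 25061 CPM in infested and 7507 to 11864 CPM in control libraries.

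Camalexin is an indole phytoalexin, and 4 of its 7 genes rose while 1 fell. CYP71A12 was the rise that held in every fit, at 2.82 ± 0.47 (adjusted p = 1.5e-05). The calls of CYP71A13 and CYP71B15 were lost without infested replicate 2 or control replicate 3, and that of CYP71B15 also without control replicate 1, with adjusted p of up to 0.056 and 0.07. CYP71B6, at 0.34 ± 0.10, lost its call without infested replicate 4 or control replicate 1 or 3. Without control replicate 3 the list had 1 rise left, and without infested replicate 2 or control replicate 1 it had 2. CYP71A12, CYP71A13 and CYP71B15 were read at low levels, at most 5.36 CPM in any library. WRKY33 (AT2G38470), a factor that switches on camalexin genes, had 29, 24.301, 21.6 and 28.7 CPM in infested and 207, 122, 105 and 205 CPM in control libraries, a log2 change of -2.63 ± 0.27 (adjusted p = 3.5e-09). No infested library came near the lowest control library.

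Phenylpropanoid and anthocyanin genes rose in 6 of 23 tested members and none fell. The rises were 3 without infested replicate 2 or 3 or without control replicate 3, and 1 member fell without infested replicate 2 and 2 in a fit of the 8 libraries alone. PAP1 (AT1G56650), a MYB factor of anthocyanin synthesis, had 23.6, 21.4, 29.7 and 22 CPM in infested and 8.04, 6.16, 4.59 and 14.8 CPM in control libraries, a log2 change of 1.52 ± 0.34 (adjusted p = 0.0012). PAP2, its close relative, was at 3.58 ± 0.89 (adjusted p = 0.0028) with at most 1.74 CPM in any library.

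Of 17 genes for methionine sulfoxide reductases, ascorbate recycling and other redox enzymes, 12 rose and 2 fell. DHAR1 (AT1G19570), a dehydroascorbate reductase, had 1300.3, 1147, 1259 and 1231 CPM in infested and 431, 257, 256 and 504 CPM in control libraries, a log2 change of 1.77 ± 0.29 (adjusted p = 1.9e-05). MSRB6 and MSRB9, reductases of oxidised methionine, rose by 1.49 ± 0.29 and 3.24 ± 0.39 (adjusted p = 0.00017 and 6.7e-08). MSRB8 had 148 counts in the infested libraries together and 0 in the control libraries, at least 46.3-fold higher against a floor of 3 counts over the control group. Copper and iron superoxide dismutases moved in opposite directions. CSD1 (AT1G08830) of the cytosol had 343, 347, 327 and 321 CPM in infested and 159, 148, 129 and 143 CPM in control libraries, a log2 change of 1.21 ± 0.12 (adjusted p = 3.1e-10). CSD2 (AT2G28190) of the chloroplast had 547, 567, 503 and 533 CPM in infested and 262, 295, 267 and 258 CPM in control libraries, a log2 change of 0.99 ± 0.12 (adjusted p = 4.4e-08). CCS, the chaperone that gives both their copper, was higher by 0.88 ± 0.12 (adjusted p = 2e-07). FSD1, their iron counterpart, had 373, 349.8, 378 and 408 CPM in infested and 801, 833, 908 and 761 CPM in control libraries, a log2 change of -1.13 ± 0.18 (adjusted p = 1.1e-05). The groups were apart in all of these, and no single library stood out. Of the catalases CAT3 rose by 0.96 ± 0.10 and CAT2 was lower at -0.55 ± 0.10 (adjusted p = 3e-09 and 5.6e-05). In the tau class of glutathione transferases 7 of 13 tested members rose and none fell. Among them GSTU5 rose by 0.80 ± 0.21 and GSTU6 by 2.23 ± 0.38.

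In the rapid class falls outnumbered rises at 4 d, and the rises were in the list of WRKY, MYB and kinase genes and among touch genes. In the ERF list 5 of 11 tested members fell and none rose, with a median of -1.3 and a summed level of 101 to 123 CPM in infested and 221 to 506 CPM in control libraries. ERF5 (AT5G47230), an activator of pattern responses, had 3.86, 3.47, 3.61 and 3.2 CPM in infested and 67.4, 41.6, 43.2 and 48.8 CPM in control libraries, a log2 change of -3.83 ± 0.35 (adjusted p = 2.5e-10). Its close relatives ERF104, ERF105 and ERF6 were at -4.24 ± 0.40, -4.01 ± 0.45 and -3.71 ± 0.40, with adjusted p of 3.9e-10, 1.5e-08 and 7.2e-09. In each of these 4 genes every control library was several times above every infested one. All 4 were among the 15 largest falls, so the lack of overlap follows from the choice. By DESeq2, and in a fit of the 8 libraries alone, 1 member of the list rose. ERF4, a repressor, had a log2 change of -1.30 ± 0.23 (adjusted p = 5e-05).

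Zinc finger factors gave the highest share of falls. Of 10 tested members 7 fell and none rose, and the summed level was 77 to 95.7 CPM in infested and 324 to 611 CPM in control libraries. SZF1 (AT3G55980), a CCCH zinc finger factor of salt and pattern responses, had 40.7, 35.4, 35.9 and 30.8 CPM in infested and 314, 207, 176 and 331 CPM in control libraries, a log2 change of -2.85 ± 0.26 (adjusted p = 3e-10). ZAT10 (AT1G27730), a repressor of the C2H2 family, had 12.18, 8.02, 9.32 and 8.72 CPM in infested and 61.3, 37, 31.3 and 89.6 CPM in control libraries, a log2 change of -2.52 ± 0.40 (adjusted p = 9.8e-06). CZF1, the closest relative of SZF1, and ZAT6 were at -2.43 ± 0.22 and -2.79 ± 0.38 (adjusted p = 1e-10 and 6.4e-07). Control replicates 1 and 4 were again the higher ones for SZF1 and ZAT10, but every control library of these 4 genes was above every infested library. The fall of ZAT12 (adjusted p = 0.0075) was lost without control replicate 4 (adjusted p = 0.068).

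WRKY, MYB and kinase genes of the pattern response fell in 7 of 13 tested members and rose in 4. WRKY40 (AT1G80840), a repressor, had 17.2, 11.5, 10.1 and 13.4 CPM in infested and 62.8, 41.9, 36.6 and 105 CPM in control libraries, a log2 change of -2.24 ± 0.43 (adjusted p = 0.00016). WRKY22, WRKY53 and WRKY11 were at -2.36 ± 0.29, -2.32 ± 0.30 and -1.23 ± 0.15, and MPK3, a kinase of the first signalling steps, at -1.30 ± 0.17. WRKY60 (AT2G25000), which forms dimers with WRKY40, was among the rises and had 17.7, 21.9, 12.6 and 18.6 CPM in infested and 2.82, 3.75, 4.53 and 4.14 CPM in control libraries, a log2 change of 2.21 ± 0.24 (adjusted p = 3.5e-09). Every infested library was below every control library for WRKY40 and above it for WRKY60. The 7 falls became 5 or 6 when 1 library was left out, and 6 in a fit of the 8 libraries alone. Of the 4 rises, 2 were left without control replicate 3.

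Touch genes and cold factors also differed. Of 10 touch genes and calmodulin-like sensors 4 fell and 2 rose. CML23, TCH4 and TCH2, a sensor, a wall enzyme and another sensor, were at -2.21 ± 0.25, -1.60 ± 0.32 and -1.15 ± 0.21, while CML41 and CML39 were higher by 3.42 ± 0.38 and 4.72 ± 0.85. Of 14 genes of the cold response 3 fell and 1 rose. The falls were those of the head factors CBF1, CBF2 and CBF3, which stand side by side on chromosome 4. KIN2, a target of these factors, rose by 0.89 ± 0.29 (adjusted p = 0.032), a call lost without infested replicate 1 or 3 or control replicate 2, 3 or 4, while DESeq2 and a fit of the 8 libraries alone called 3 rises in the list. CBF2 (AT4G25470) had 0.661, 0.511, 0.602 and 0.276 CPM in infested and 6.15, 6.86, 5.02 and 16.3 CPM in control libraries, a log2 change of -4.04 ± 0.64 (adjusted p = 8.4e-06). CBF2 was among the 15 largest falls, so the lack of overlap follows from the choice. Control replicate 4 was the highest by far. Without that library the log2 change was -3.53, with an adjusted p of 8.2e-05.

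The bases before the start of SZF1 and CBF2 are shown because both genes fell at 4 d, had an effect below that at 24 h and carry motifs searched for here. They are examples, and the counts of these motifs in the rapid lists follow below. Both stretches are from TAIR10.1, chr3:20775970-20776219 on the plus strand for SZF1 and chr4:13016236-13016485 on the minus strand for CBF2. Both are written 5′ to 3′ towards the transcription start, and no other gene lies in them. Capitals mark W-boxes (TTGACC, or GGTCAA on the other strand), which WRKY factors are known to bind, a G-box (CACGTG) and the rapid stress response element (CGCGTT).
SZF1: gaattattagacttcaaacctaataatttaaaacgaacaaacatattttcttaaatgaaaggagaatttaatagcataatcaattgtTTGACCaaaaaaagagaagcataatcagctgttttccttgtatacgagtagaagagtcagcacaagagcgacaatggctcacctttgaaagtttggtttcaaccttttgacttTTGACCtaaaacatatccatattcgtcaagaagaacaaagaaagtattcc
CBF2: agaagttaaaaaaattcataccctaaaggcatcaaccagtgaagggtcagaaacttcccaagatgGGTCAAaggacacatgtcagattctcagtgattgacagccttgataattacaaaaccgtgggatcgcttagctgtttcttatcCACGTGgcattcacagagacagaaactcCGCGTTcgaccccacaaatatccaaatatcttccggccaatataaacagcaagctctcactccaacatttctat

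Over the 250 bases before to 50 bases after the start, searched on both strands, the W-box was in 14.2% of all 27443 promoters of the annotation. It was in 21.9% of the 374 promoters of genes at least 2-fold lower at 4 d and in 110 of the 723 promoters of genes at least 2-fold higher. The rapid stress response element was in 8.82% of the lower, 3.46% of the higher and 3.4% of all promoters. The G-box was in 9.89% of the lower, 12% of the higher and 7.68% of all promoters. Its 95% interval was 7.06% to 13.4% in the lower and 9.75% to 14.6% in the higher set. Both sets come from tested genes, whose 21037 promoters held the G-box in 8.75%, the W-box in 14.5% and the rapid stress response element in 3.67%. They held the C-repeat in 15.8% and the GCC-box in 2.55%. Of the 11 ERF and 10 zinc finger promoters, 1 and 5 held the W-box and 5 and 3 the G-box. The rapid stress response element was in 0 of either list. Of the JA lists, the G-box was in 2 of 16 synthesis, 6 of 23 JAZ and turnover and 0 of 17 defence protein promoters. None of these motifs contains another. A match is a run of letters in the window and was not tested as a binding site.

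At 24 h 7 of the 11 ERF, 9 of the 10 zinc finger and 9 of the 13 WRKY, MYB and kinase genes had been higher in infested plants and none lower, against 13% higher and 10.2% lower over all genes. At 7 d 7 of the 11, 8 of the 10 and 8 of the 13 were lower and none higher, against 6.16% higher and 7.59% lower over all genes. The change of the effect between times was itself tested. The comparisons of 4 d and 24 h share no library. Over all genes the effect at 4 d was below that at 24 h in 617 genes (2.77%) and above it in 131 (0.589%), the last count being 83 without infested replicate 1 of 24 h. Below 24 h were 8 genes of the ERF list, 9 of the zinc finger list and 8 of the WRKY, MYB and kinase list. Below 7 d (0.903% of all genes) was 1 gene of the ERF list, with none in the other lists, and above 7 d (2.67% of all genes) were 4 of the WRKY, MYB and kinase list. SZF1 had an infested over control log2 change of 1.44 ± 0.26 at 24 h, so that the effect differed by -4.29 ± 0.37 (adjusted p = 3e-10). The difference between the effects was -5.32 ± 0.57 for ERF104, -5.50 ± 0.60 for ZAT10 and -5.13 ± 0.64 for WRKY40, with adjusted p of 2.8e-08, 3.7e-08 and 5.6e-07. LYK5, the main chitin receptor, had the smallest p of this contrast, with a difference of -3.47 ± 0.27 (adjusted p = 4.6e-12). In infested plants LYK5 averaged 7.17 ± 0.45 CPM at 4 d, against 29.1 ± 5.93 CPM in control plants (SD, n = 4 each).

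Control plants of 4 d and of the later harvests had higher means of SZF1, ERF5 and CYP707A3 than those of 30 min and 24 h. This did not hold for CBF2 at 15 d. Its control mean was 1.31 ± 0.498 CPM at 30 min, 0.467 ± 0.261 CPM at 24 h, 8.57 ± 5.18 CPM at 4 d and 0.267 ± 0.159 CPM at 15 d. In infested plants SZF1 averaged 65.7 ± 7.14 CPM at 24 h, 35.7 ± 4.08 CPM at 4 d and 37.9 ± 12.9 CPM at 7 d. The control mean of SZF1 was 20.2 ± 2.97 CPM at 30 min, 24.195 ± 4.24 CPM at 24 h, 257 ± 77.1 CPM at 4 d, 193 ± 64.9 CPM at 7 d, 148 ± 56.7 CPM at 12 d and 104 ± 13.9 CPM at 15 d. ERF5 had control means of 1.31 ± 0.185 CPM at 30 min, 3.17 ± 0.438 CPM at 24 h, 50.2 ± 11.9 CPM at 4 d, 30.06 ± 12.8 CPM at 7 d, 25.4 ± 14 CPM at 12 d and 12.098 ± 3.33 CPM at 15 d. Those of CYP707A3 were 4.89 ± 0.82 CPM at 30 min, 1.29 ± 0.471 CPM at 24 h, 35.6 ± 12.399 CPM at 4 d, 22 ± 7.24 CPM at 7 d, 28.3 ± 11.2 CPM at 12 d and 25.5 ± 7.43 CPM at 15 d. In SZF1, ERF5 and CYP707A3 the highest control mean was that of 4 d and the lowest was at 30 min or 24 h. Not every gene that fell was highest there. BT2 had control means of 40 ± 21.1 CPM at 4 d and 80.7 ± 29.4 CPM at 7 d, and PUB19 62.9 ± 15.5 and 83 ± 7.86 CPM. Against the mean of the control plants of 24 h and 7 d, 354 genes (1.59%) were higher in the control plants of 4 d and 162 (0.728%) were lower, among them 7 of 11 ERF genes and 6 of 10 zinc finger genes on the higher side. That mean joins a low and a high harvest, and the control plants of 4 d and 7 d were not compared alone. SZF1 in control plants of 4 d was 1.91 ± 0.21 above it on the log2 scale (adjusted p = 8e-08). ERF5 and CYP707A3 in control plants of 4 d were above the mean of both neighbours by 2.36 ± 0.26 and 2.74 ± 0.26 (adjusted p = 1.1e-07 and 6.6e-09). Without control replicate 4 the counts over all genes were 194 higher and 59 lower, and the lower count was 90 without control replicate 2, 105 without control replicate 3 and 101 without control replicate 4 of 24 h. Among infested plants, 53 genes (0.238%) were higher and 70 (0.315%) lower at 4 d than the mean of 24 h and 7 d, none of them in the 3 lists of rapid genes. These counts were 29 and 36 without infested replicate 1, 32 and 35 without replicate 2 and 34 and 42 without replicate 4, and 31 were lower without replicate 3. The comparison of infested with control plants at 4 d uses the same control libraries, so these values are not independent of the falls above. What set the control harvests apart was not tested.

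**Figure D4:**
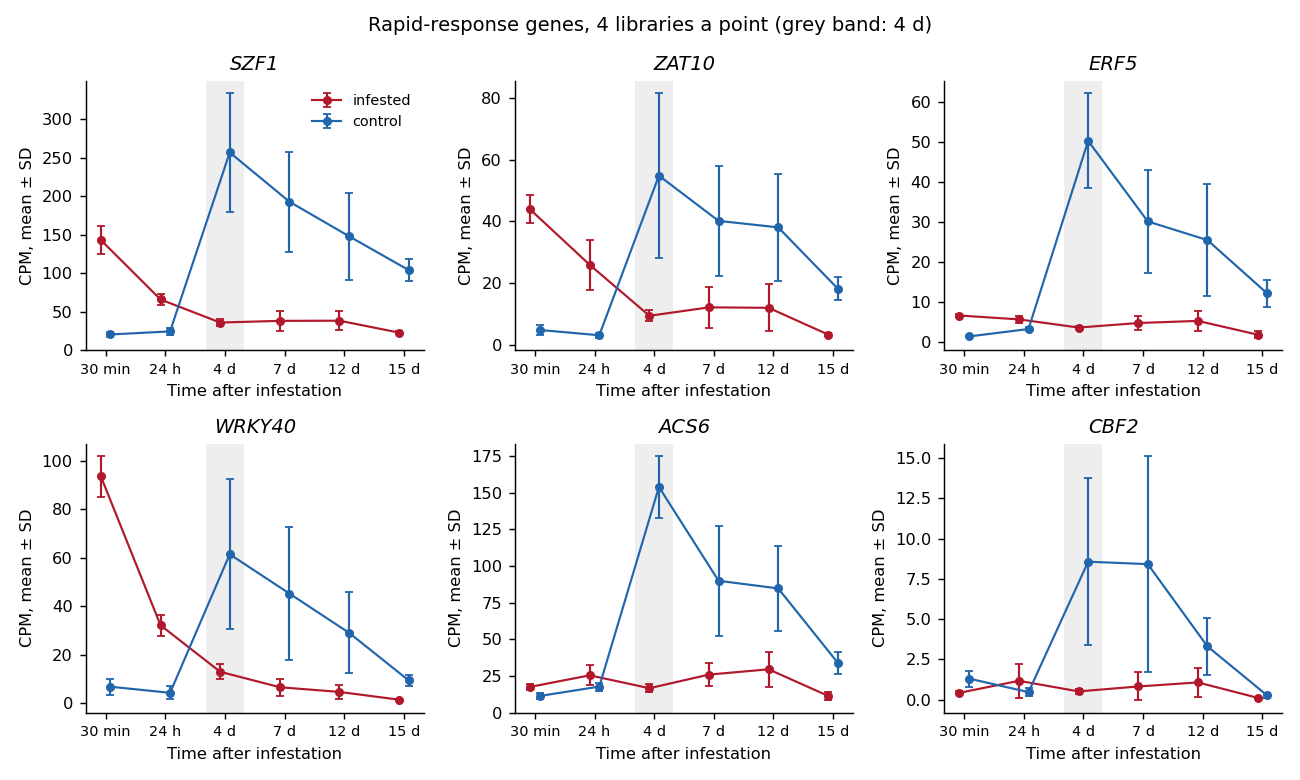
Mean CPM ± SD over 4 libraries of 6 rapid-response genes in infested (red) and control (blue) plants at the 6 harvests, drawn at equal steps along the axis, with 4 d shaded. The control means of all 6 genes are above the infested means at 4 d, while at 24 h the infested means are above the control means. The difference at 24 h did not pass edgeR's test for ERF5, ACS6 and CBF2 (adjusted p = 0.13, 0.21 and 0.23).

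Of 27 genes of abscisic acid (ABA), the drought hormone, 2 rose and 5 fell, with a median of -0.38. NCED3 (AT3G14440), the enzyme that limits ABA synthesis in drought, had 9.81, 9.85, 9.12 and 9.55 CPM in infested and 67, 48.5, 50 and 61.4 CPM in control libraries, a log2 change of -2.57 ± 0.33 (adjusted p = 2.2e-07). CYP707A3 (AT5G45340), which breaks ABA down, had 4.9, 3.11, 4.81 and 2.32 CPM in infested and 37.2, 29.2, 23.7 and 52.2 CPM in control libraries, a log2 change of -3.23 ± 0.32 (adjusted p = 1.2e-09). Genes for making and for removing the hormone were thus both lower. PP2CA, a phosphatase that blocks ABA signalling, was at -1.43 ± 0.25, and GOLS1, an enzyme of raffinose synthesis, was higher by 1.90 ± 0.33. A fit of the 8 libraries alone called 13 falls in this list.

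Of 20 ethylene genes 3 rose and 6 fell. The falls were mostly of ACC synthases, the enzymes that limit ethylene synthesis. ACS6 (AT4G11280), the one under control of MPK3 and MPK6, had 15.8, 15.06, 20.9 and 15.18 CPM in infested and 177, 149.7, 127 and 162 CPM in control libraries, a log2 change of -3.20 ± 0.29 (adjusted p = 2.6e-10). ACS11, ACS4, ACS8 and ACS5 were at -2.50 ± 0.36, -2.22 ± 0.36, -1.30 ± 0.31 and -2.73 ± 0.59. The F-box genes EBF1 and EBF2, which break down the ethylene factor EIN3, rose by 0.69 ± 0.10 and 0.42 ± 0.10. The third rise, of the ACC synthase ACS7 (adjusted p = 0.024), was lost without infested replicate 3 or any control library, and a fit of the 8 libraries alone called 7 rises.

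Growth hormones were represented by more falls than rises. In auxin response 12 of 26 tested members fell and 4 rose, with a median of -0.46. IAA1 (AT4G14560), an early auxin repressor gene, had 18.1, 16.5, 18.6 and 15.29 CPM in infested and 52.6, 52.4, 55.8 and 41.6 CPM in control libraries, a log2 change of -1.56 ± 0.13 (adjusted p = 7.2e-12). HAT2, a homeobox factor induced by auxin, had 26.4, 25.4, 26.8 and 25.2 CPM in infested and 48.5, 57, 57.6 and 47.7 CPM in control libraries, a log2 change of -1.02 ± 0.11 (adjusted p = 3.5e-09). Their groups were far apart relative to the spread of either. Against this, SAUR16 (AT4G38860) had 90.9, 100.3, 86.3 and 91.1 CPM in infested and 33.4, 38.9, 48.2 and 35.7 CPM in control libraries, a log2 change of 1.24 ± 0.14 (adjusted p = 5.7e-09), and GH3.3, which conjugates auxin, rose by 1.39 ± 0.17. Type-A cytokinin response regulators and cytokinin oxidases fell in 7 of 12 tested members and rose in 1. ARR5 (AT3G48100) had 7.83, 7.56, 7.52 and 7.62 CPM in infested and 17.9, 17.7, 17.5 and 19.8 CPM in control libraries, a log2 change of -1.26 ± 0.14 (adjusted p = 5e-09). ARR7 and ARR9 were at -1.26 ± 0.16 and -0.72 ± 0.09, and the oxidase CKX5 was higher by 0.97 ± 0.20. Of 15 genes of gibberellin and brassinosteroid metabolism 5 fell, or 3 without control replicate 2 or 3. GA3OX1 and GA2OX1, which make and inactivate active gibberellin, were at -1.71 ± 0.24 and -2.39 ± 0.33. In wall loosening 4 of 19 fell and 3 rose. XTH17 was at -2.16 ± 0.21 (adjusted p = 1.6e-10), with 3.47, 3.11, 3.51 and 2.98 CPM in infested and 13.2, 16.6, 17.5 and 11.3 CPM in control libraries. Only XTH16 of the 3 rises held in every fit, at 0.59 ± 0.15, and it was the 1 rise left without infested replicate 1, 2 or 4 or control replicate 2 or 3.

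Genes of light harvesting and the Calvin cycle that passed the test changed by less than 2-fold. Of 34 genes of light harvesting and the photosystems 1 fell and none rose, and the median was -0.09. PSBS (AT1G44575), the protein that lets excess light be lost as heat, was that 1, with 1623, 1613, 1612 and 1598 CPM in infested and 1889.7, 2065, 2229.5 and 2080 CPM in control libraries and a log2 change of -0.36 ± 0.09 (adjusted p = 0.0026). A fit of the 8 libraries alone called 8 falls in the list. Of 16 Rubisco small subunit and Calvin cycle genes 11 fell and none rose, none of them 2-fold, with log2 changes from -0.38 to -0.21 over the list. GAPB (AT1G42970), a subunit of the glyceraldehyde phosphate dehydrogenase, had 1692, 1682, 1586 and 1666 CPM in infested and 2038, 2183, 2318 and 2109 CPM in control libraries, a log2 change of -0.38 ± 0.08 (adjusted p = 0.00029). RCA, the activase of Rubisco, was at -0.31 ± 0.07 and FBA1, an aldolase, at -0.33 ± 0.07. The count of 11 was 7 without infested replicate 3 or control replicate 3. Of 17 genes of chlorophyll synthesis and its GLK regulators 4 fell and 1, that of the transcription factor GLK1, rose by 0.42 ± 0.08. PORA, a protochlorophyllide reductase read at no more than 2.24 CPM, was at -1.30 ± 0.28 (adjusted p = 7e-04), and CHLH, CAO and CRD1, enzymes of the path, were at -0.52 ± 0.12, -0.41 ± 0.07 and -0.32 ± 0.08. The 8-library fit called 9 falls. Genes of the chloroplast genome, 87 tested with a median of -0.31, had no call in either direction by edgeR, and none had an unadjusted p under 0.05. They were read at 207 to 248 CPM in infested and 255 to 298 CPM in control libraries in all.

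Nitrogen assimilation fell in 9 of 16 tested members and rose in 4, with a summed level of 4624 to 4985 CPM in infested and 6711 to 7344 CPM in control libraries. NIR1 (AT2G15620), the nitrite reductase, had 259, 249, 254 and 284 CPM in infested and 472, 459, 505 and 487 CPM in control libraries, a log2 change of -0.88 ± 0.12 (adjusted p = 1.5e-07). The nitrate reductases NIA1 and NIA2 were at -1.08 ± 0.18 and -0.68 ± 0.12, the plastid glutamine synthetase GLN2 at -0.40 ± 0.08 and the glutamate synthase GLU1 at -0.63 ± 0.14. Against these, NRT1.7 (AT1G69870), a phloem transporter that moves nitrate out of old leaves, had 64.1, 63.7, 59.9 and 60.5 CPM in infested and 26.2, 26.3, 21.5 and 27.1 CPM in control libraries, a log2 change of 1.30 ± 0.17 (adjusted p = 3.2e-07). The cytosolic glutamine synthetase GLN1;1 and the glutamate dehydrogenase GDH2 rose by 0.97 ± 0.17 and 1.15 ± 0.13.

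Of 17 genes of sulfate uptake and assimilation 9 rose and 3 fell. LSU1 and SDI1, markers of low sulfur, rose by 1.91 ± 0.31 and 1.42 ± 0.29, and SULTR1;2, a sulfate importer of the root surface, by 1.53 ± 0.24. APK1 and APK2, which make the sulfate donor used for glucosinolates, rose by 0.76 ± 0.16 and 0.88 ± 0.20. APR2, the reductase of the other branch, was lower at -0.59 ± 0.09 (adjusted p = 8.1e-06). Iron genes fell in 6 of 20 and rose in none, with FRO7, a chloroplast iron reductase, at -0.38 ± 0.11 and NAS4, a nicotianamine synthase, at -0.87 ± 0.14. The fall of the ferritin gene FER1 was lost without control replicate 4 (adjusted p = 0.062). Phosphate starvation genes rose in 2 of 12, PHT1;4, a phosphate importer, by 2.75 ± 0.34 and PPSPASE1, a phosphatase, by 1.52 ± 0.46. The call of PPSPASE1 was lost without infested replicate 4 or control replicate 2 or 3, and a fit of the 8 libraries alone called 4 rises.

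Senescence genes moved both ways, 5 of 15 higher and 3 lower. SAG13 (AT2G29350) had 39.8, 57.2, 32.1 and 52.8 CPM in infested and 3.91, 4.99, 1.78 and 2.2 CPM in control libraries, a log2 change of 3.83 ± 0.53 (adjusted p = 1.1e-06). NAP (AT1G69490), a NAC factor that drives leaf senescence, had 11.1, 11.4, 12.8 and 12.42 CPM in infested and 98.5, 73.6, 68.6 and 58.5 CPM in control libraries, a log2 change of -2.65 ± 0.21 (adjusted p = 1.2e-11). The groups did not overlap in either gene, and the directions were opposite. Among 18 sugar signalling genes 4 rose and 4 fell. ASN1, an asparagine synthetase of dark and sugar-starved leaves, had 68.4, 44, 72.6 and 91.9 CPM in infested and 15.11, 8.04, 5.67 and 17.9 CPM in control libraries (log2 change 2.57 ± 0.32, adjusted p = 1.3e-07). Of the 4 rises, 2 were left without infested replicate 4 or control replicate 3 or 4, and 2 of the 4 falls without control replicate 1. In the SWEET sugar transporters 4 of 12 rose and 1 fell. The falls were 2 without infested replicate 1 or control replicate 3 or 4 and by DESeq2. SWEET12 (AT5G23660), which loads sugar towards the phloem together with SWEET11, had 38.1, 38.6, 30.43 and 34.9 CPM in infested and 9.54, 6.51, 4.96 and 8.96 CPM in control libraries, a log2 change of 2.24 ± 0.34 (adjusted p = 4.7e-06). Cuticular wax genes fell in 6 of 16 and rose in 2, with MYB96, a factor that switches on wax genes in drought, at -1.42 ± 0.15 and CER1, of alkane synthesis, at -0.59 ± 0.09. Of 22 clock genes 5 fell and 1 rose, among them CCA1 and LHY, the paired morning factors, at -0.43 ± 0.08 and -0.29 ± 0.08. The rise was that of ELF4, an evening gene, at 1.16 ± 0.27, and there were 2 rises without control replicate 1 or 4 and 3 rises and 8 falls in a fit of the 8 libraries alone.

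Some lists gave no calls or few. None of 27 cell division genes and none of 14 heat shock genes passed edgeR's test at 4 d, nor did any by DESeq2. At an unadjusted p under 0.05 there were 0 of the cell division genes, and 1 higher and 1 lower of the heat shock genes. Without infested replicate 2 the heat shock list had 1 rise, and in a fit of the 8 libraries alone 1 fall. Of 17 flowering genes SOC1 rose by 0.33 ± 0.10, a call lost without infested replicate 1 or control replicate 2, and SPL15 was at -0.57 ± 0.18, lost without infested replicate 3 or 4 or control replicate 2 or 4. Of 8 chaperones of the endoplasmic reticulum BZIP60, the factor that induces them, fell at -0.93 ± 0.12 (adjusted p = 1.2e-07), and the rise of PDIL1-1 was lost without infested replicate 2 or 4 or control replicate 1, while a fit of the 8 libraries alone called 4 rises. Markers of other organs were low in both groups. The 8 floral organ genes summed to 9.99 to 18.6 CPM in infested and 13.8 to 21.5 CPM in control libraries, and the 4 pollen genes to at most 1.21 and 0.629 CPM, with no call. Of the 6 root markers RHD6, COBL9, EXPA7, EXPA18 and CASP1 were too low to be tested, and PYK10, a beta-glucosidase that leaves can also hold, was higher by 0.72 ± 0.17 with 427, 422, 462 and 403 CPM in infested and 272, 255, 268 and 244 CPM in control libraries. Of 8 seed markers SESA1 alone was tested, with 16 counts in the infested libraries together and 0 in the control libraries. Its call (adjusted p = 0.03) was lost without infested replicate 4 or any control library.

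The effect at 4 d differed from that at 24 h and at 7 d in named genes beyond the rapid class. The comparisons at the 3 times share no library. Of all genes, 2882 (13%) rose and 2275 (10.2%) fell under infestation at 24 h, and 1371 (6.16%) rose and 1688 (7.59%) fell at 7 d. Among the genes above 24 h were 4 of the 26 auxin genes and 3 of the 22 clock genes. SAUR16 stood at -0.32 ± 0.13 at 24 h and 1.24 ± 0.14 at 4 d, a difference of 1.56 ± 0.19 (adjusted p = 1.5e-07). Its means at 24 h and 4 d were 95 ± 8 and 39 ± 6.5 CPM in control plants. In infested plants they were 75.9 ± 6.39 and 92.1 ± 5.88 CPM. GAI, a DELLA repressor of growth, differed by 0.90 ± 0.12 (adjusted p = 7e-07). CSD2 stood at 0.00 ± 0.12 at 24 h, a difference of 0.99 ± 0.17 (adjusted p = 9e-05), and CCS differed by 1.02 ± 0.17 (adjusted p = 3.1e-05). TGG2 stood at 0.06 ± 0.13 at 24 h, a difference of 0.84 ± 0.18 (adjusted p = 0.0016). Its means at 24 h and 4 d were 2277 ± 150 and 2117 ± 401 CPM in control plants. In infested plants they were 2380.4 ± 163 and 3966 ± 428 CPM. Below 24 h, beside the rapid genes, were ARR5 at 0.04 ± 0.14 at 24 h with a difference of -1.30 ± 0.20 (adjusted p = 1.4e-05), IAA1 with -1.02 ± 0.18 (adjusted p = 0.00011) and CBP60G with -3.30 ± 0.38 (adjusted p = 8.3e-08). SA genes as a list were lower than at 24 h in 14 of 26 members, after 22 rises at 24 h and before 13 falls at 7 d.

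Against 7 d, the effect at 4 d was higher in 594 genes (2.67%) and lower in 201 (0.903%). These counts depended on single libraries. Without one of the control libraries of 7 d they were 285 higher and 61 lower (replicate 2), 306 and 77 (replicate 3), 972 and 400 (replicate 4), and 513 lower without replicate 1. Without a library of 4 d they were 372 and 121 (infested replicate 4), 395 and 112 (control replicate 2) and 363 and 96 (control replicate 3), and without infested replicate 2 of 7 d 126 were lower. SAG13 stood at -0.65 ± 0.44 at 7 d, so that the effects differed by 4.48 ± 0.69 (adjusted p = 0.00084). SWEET12 differed by 2.95 ± 0.48, NRT1.7 by 1.36 ± 0.24 and WRKY60 by 1.83 ± 0.32, with adjusted p of 0.0011, 0.0015 and 0.0015. These genes were higher in infested plants at 24 h and 4 d but not called so at 7 d. JA synthesis genes, of which 14 rose at 24 h and 9 at 4 d, had 5 rises at 7 d, and the JAZ and turnover list had 21, 19 and 4. JAZ10 differed from 7 d by 3.18 ± 0.80 (adjusted p = 0.018) and CYP94C1 by 2.87 ± 0.62 (adjusted p = 0.0063). The JA-responsive defence proteins did not follow, with 12, 16 and 15 rises at the 3 times. VSP1 stood at 3.25 ± 0.67, 3.80 ± 0.69 and 3.24 ± 0.67 at 24 h, 4 d and 7 d, and the differences of the effect at 4 d from 24 h and from 7 d did not pass the test (adjusted p = 0.91 and 0.84). HAT2 and IAA1 were lower relative to control at 4 d than at 7 d, by -0.83 ± 0.16 and -0.94 ± 0.18 (adjusted p = 0.0022 and 0.0023), and ERF104 by -2.52 ± 0.52 (adjusted p = 0.005).

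**Figure D5:**
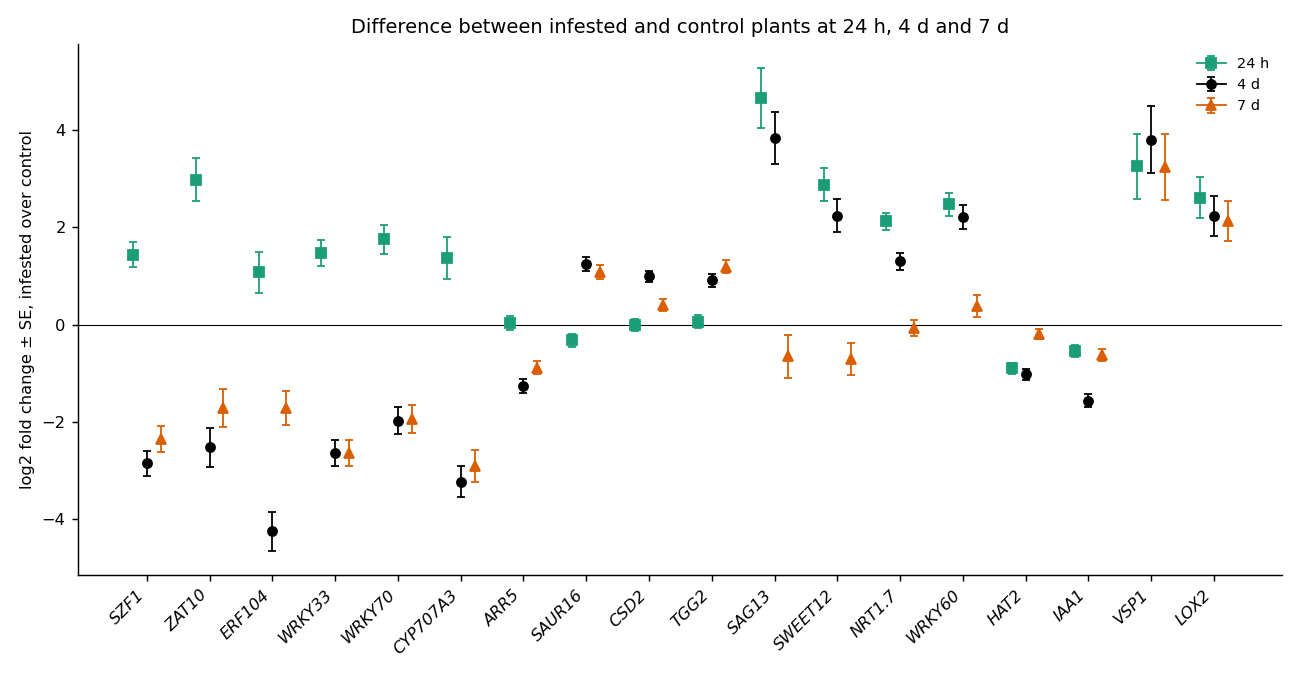
Log2 fold change ± SE of infested over control plants at 24 h (green), 4 d (black) and 7 d (orange) for 18 genes. Rapid genes and CYP707A3 at the left are above 0 at 24 h and below it at 4 d, SAUR16, CSD2 and TGG2 are near 0 or below at 24 h and above it at 4 d, SAG13 to WRKY60 are above 0 at 24 h and 4 d and close to or below it at 7 d, and VSP1 and LOX2 are above 0 at all 3 times.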

How the data were processed

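RNA from pooled aerial parts was made into NEBNext Ultra libraries and read from both ends for 150 bases, per the labels' protocols. The authors deposited raw counts, 1 whole number per gene and library, for 33211 features in 48 libraries. Among the tools in the submitters' processing notes are HISAT2, featureCounts, fastp and DESeq2, with the TAIR10 build. No source used here gives versions, settings, the use of strand or the treatment of reads with several matches, so overlapping genes and near-identical copies (the PDF1.2 family, AOC1 to AOC3, SAUR22 to SAUR24, small subunits of Rubisco) are uncertain. Symbols were taken by locus from the TAIR10.1 annotation, which matched 32548 features.

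Counts were tested with edgeR 4.0.16 in R 4.3.3. The filter filterByExpr kept 22252 genes, and TMM factors scaled the library sizes. A robust quasi-likelihood fit over all 48 libraries had 1 term per group (12 in all), and the two-sided F-test compared infested with control plants at 4 d. Further contrasts took the effect at 4 d minus that at 24 h or 7 d, and the control or infested plants of 4 d against the mean of both neighbouring harvests. Adjusted p-values are Benjamini-Hochberg values over all genes of a contrast, with a threshold of 0.05. Fold changes are on the log2 scale with a standard error. That error was calculated back from the test, as the size of the log2 change over the square root of its F value. Levels are CPM with scaled library sizes, and ± beside a level is the SD over 4 libraries. Library totals at 4 d ran from 17.7 to 21.3 M counts. The p-values rest on the spread between pools of plants within the 12 groups. That spread was estimated over all 48 libraries, not from those of 4 d alone.

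Simulated counts with 200 changed genes of 22252 gave back 78% of changes of 1.5-fold, 88% of 2-fold, 96% of 4-fold and 100% of 8-fold, with 9 of 190 calls on unchanged genes. Changes were placed only in genes above a set mean level, not in those read at a few counts. Each gene had a single spread from all 48 libraries, so the unevenness of the control libraries of 4 d was not simulated. Far fewer genes were changed than the 3642 called in the data.

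Members and gene lists were chosen with earlier results of these data known. Named genes were the 15 largest rises and falls without overlap between groups and with log2 CPM averaging 1 or more, up to 4 members of each list with the smallest p, the 6 smallest p in each direction of each change between times, and the 5 most read genes changed at least 2-fold each way. Other genes printed were chosen after their values were seen. Whether infested and control libraries of 4 d with the same replicate number belong together was checked from their deviations from group means. Correlations were 0.032 to 0.078 for the same number and -0.075 to 0.039 for different numbers. All were weak, with those of the same number mostly the higher ones, and pairing was not tested further. Promoter sequences come from the RefSeq copy of TAIR10.1 and were used with gene starts of that annotation alone.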

Additional observations from a re-analysis of the deposited data

Results flagged for a closer look

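Single libraries stood apart in 7 of the 126 groups of 4 libraries whose values are printed, and chance flags about 1 in 20 groups. Control replicate 4 was the high one in 3 of them, with 27.9 CPM of PDF1.2, 1.21 CPM of CYP82G1 and 16.3 CPM of CBF2. Infested replicate 2 was low in JAZ10 (79.2 CPM) and MYC2 (297 CPM), infested replicate 3 was high in ACS6 (20.9 CPM) and control replicate 3 was low in NRT1.7 (21.5 CPM).

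The effect at 4 d differed from the effect at 24 h by edgeR's quasi-likelihood test on the interaction. On the log2 scale the difference was -4.29 for SZF1, -5.32 for ERF104, -5.5 for ZAT10, -5.13 for WRKY40, -3.47 for LYK5, -3.3 for CBP60G, -1.3 for ARR5 and -1.02 for IAA1. It was 1.56 for SAUR16, 0.9 for GAI, 0.99 for CSD2, 1.02 for CCS and 0.84 for TGG2.

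From the effect at 7 d that at 4 d differed by 4.48 in SAG13, 2.95 in SWEET12, 1.36 in NRT1.7, 1.83 in WRKY60, 3.18 in JAZ10 and 2.87 in CYP94C1. Differences below 0 were -0.83 in HAT2, -0.94 in IAA1 and -2.52 in ERF104.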

How the results depend on the processing

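The counts at 4 d, 1932 higher and 1710 lower, stayed within 1.5 times under DESeq2 size factors, library totals, DESeq2's Wald test and no filter, and ran from 1551 to 1808 and from 1340 to 1510 when 1 library was left out. Scaling by library totals gave 1727 higher and 1941 lower and the others 48.6% to 55.5% of calls higher, against 53% as reported and 47.1% with totals. No gene was called in the opposite direction by any of these fits. A fit of the 8 libraries alone called 2598 higher and 2747 lower, and with the replicate block 2809 and 2963. Correlations between infested and control libraries of the same replicate number were weak but mostly above the others. No label says that the numbers mark pairs. With the block LOX2, AOC1, AOC2, OPR3, VSP1, VSP2, NATA1, JAZ10 and WRKY70 were among the named genes no longer past the threshold.

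For the effect at 4 d minus that at 24 h, 131 genes higher became 289 in the libraries compared alone, 370 with the block and 83 to 164 without 1 library. For 4 d minus 7 d the block gave 978 higher and 621 lower, and leaving out 1 library gave 285 to 972 higher and 61 to 513 lower. Control plants of 4 d against their neighbours had 229 genes higher in the libraries compared alone and 194 to 454 without 1 library. The 162 lower became 287 with library totals, 268 with DESeq2, 84 in the libraries compared alone and 59 to 215 without 1 library. For infested plants of 4 d against their neighbours the libraries compared alone gave 223 higher and 206 lower, DESeq2 gave 118 lower, and leaving out 1 library gave 29 to 47 higher and 31 to 70 lower. In these last 2 contrasts a block within a harvest leaves no residual degrees of freedom. A replicate block across harvests, chosen after seeing the data, gave 236 higher and 65 lower for control plants and 250 higher and 279 lower for infested plants.

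In a window of 200 bases before the start, promoters of genes at least 2-fold higher held the G-box in 9.68%, the GCC-box in 1.66%, the rapid stress response element in 2.21%, the C-repeat in 8.16% and the W-box in 10.8%. Those of genes at least 2-fold lower held the C-repeat in 14.2% and the W-box in 16.6%, and those of named genes the G-box in 10.3%. The window is shorter by construction. Over all promoters it held the G-box in 5.64%, the GCC-box in 1.46%, the rapid stress response element in 2.24%, the C-repeat in 10.1% and the W-box in 10.4%. At about 20 M counts a library, genes read at a few counts have wide errors. In simulated counts, whose changes left out genes of that kind, 22% of changes of 1.5-fold were missed.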
